A study of Nothobranchius furzeri with 20 samples.

Results

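The genes described here are the 200 whose expression differed most between the libraries of 1 group, male turquoise killifish given the lowest of 3 doses of rotenone. They were selected on the spread of their level between libraries, from the 26739 genes of the deposited count tables. Levels are in CPM, the reads of a gene scaled to a common library total of 1000000. Of the 17060 genes with a mean of at least 1 CPM over 20 libraries, 7898 had their largest standard deviation (SD) of log2(CPM + 1) in the group at 0.1%. Leaving out 11 of these that were among the 100 most abundant genes left 7887, and the 200 with the highest SD in that group were kept. The spread at 0.1% is thus what chose the genes, and the values in that group are a description. Comparisons that involve them are listed last, and nothing is read from their tests.

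RNA of skin was sequenced in 20 libraries of the short-lived annual fish Nothobranchius furzeri, strain MZM-04/10p, all from males and all under rotenone. The groups of 5 libraries are 9-week-old fish at 0.1%, at 1% and at 10% of LC50, the concentration that kills 50% of animals, and 27-week-old fish at 1%. No untreated fish are among the samples described here, and it is not stated whether every library came from its own animal. Between 21770720 and 29017737 reads per library were counted on genes. The 0.1% libraries were deposited in a separate count table, so that dose and table cannot be told apart there.

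Rotenone blocks complex I of the mitochondrial respiratory chain and is used in animals to model loss of mitochondrial function. Fish skin is a layered organ: an epidermis with mucous cells covers a dermis with scales, pigment cells, vessels and nerves, and body wall muscle lies beneath. RNA of a piece of skin is an average over whatever cells the piece holds. In such a sample more cells of a type and more RNA per cell cannot be told apart. The files list genes by identifier alone and 0 of the 26739 identifiers matched the reference table of gene names, so that neither names nor functions can be given and the skin label could not be checked against markers. The few identifiers below serve to show values.

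The 200 genes did not vary in 200 ways. At 0.1% the level of 193 of them split the 5 libraries at the same place, with replicates 1 and 4 high and replicates 2, 3 and 5 low (the split was put at the widest gap between neighbouring values of log2(CPM + 1)). Summed over the 200 genes, replicate 1 held 16148 CPM and replicate 4 held 10740 CPM. The remaining libraries at 0.1% held 403 CPM (replicate 2), 228 CPM (replicate 3) and 159 CPM (replicate 5). As a share of all reads this is 1.61% and 1.07% in replicates 1 and 4, against 0.0159% to 0.0403% in the others. Both libraries also had the most genes detected of all 20, 21828 and 21932 with at least 1 read, against 20868 to 21448 elsewhere, while the totals of 21977356 and 25380253 reads lay inside the range of the other libraries.

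**Figure D1:**
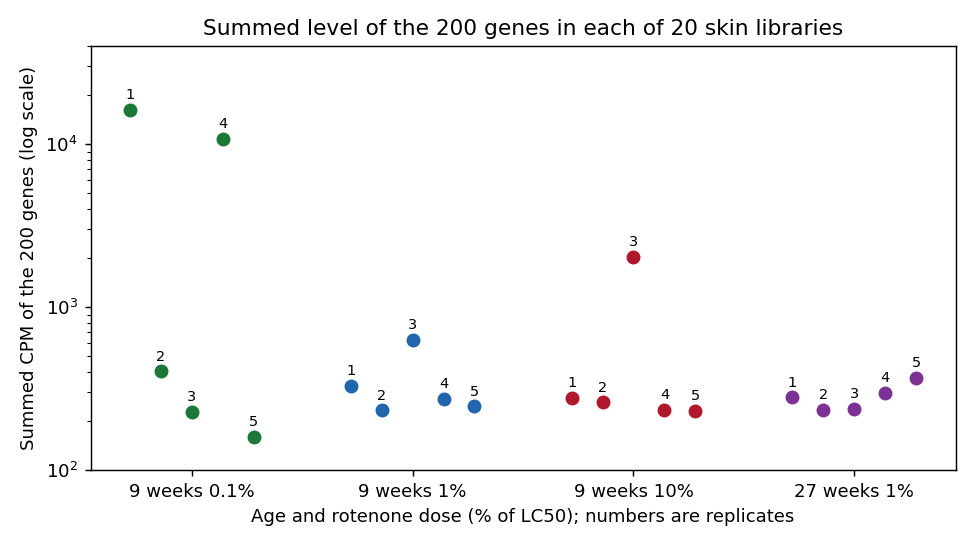
Summed CPM of the 200 genes (log scale) in each of the 20 libraries, by age and dose, each point being 1 library labelled with its replicate number. Replicates 1 and 4 at 0.1% stand at 16148 and 10740 CPM, replicate 3 at 10% at 2033 CPM and replicate 3 at 1% at 633 CPM, and the other 16 libraries lie between 159 and 403 CPM.

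The difference between the high and the low libraries was large for each of the 193 genes. The lower of replicates 1 and 4 exceeded the highest of the other 3 libraries by at least 8-fold in all 193. Among the 190 with a read in at least 1 of those 3 libraries this ratio had a median of 90.1 and ran from 9.38 to 1420. Of the 193 genes, 143 were under 1 CPM in each of the 3 low libraries, 3 of them without a read there, and 28 were at 1 CPM or more in each. The members were therefore mostly genes near the detection limit in low libraries and moderately expressed in high ones: 98.5% and 99.0% of the 200 reached 1 CPM in replicates 1 and 4, against 38 to 45 of the 200 in the other 3. Among all 17060 genes the share at 1 CPM or more ran only from 92.6% to 97.8% over the same 5 libraries. The 200 were chosen for their spread over these libraries, so that this contrast was set in part by the choice.

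The gene with the highest SD, Nfu_g_1_011763, shows the pattern at its widest. Its level at 0.1% was 598 CPM in replicate 1 and 391 CPM in replicate 4, and 0.253, 1.15 and 0.458 CPM in replicates 2, 3 and 5. At 1% and 9 weeks its level was 3.04, 1.61, 27.3, 2.09 and 4.46 CPM in replicates 1 to 5, and at 10% it was 1.12, 2.18, 67.4, 2.55 and 1.63 CPM. Replicate 3 was thus the high library in both of these groups. At 27 weeks the level lay between 0.757 and 8.89 CPM, the highest being replicate 5. The most abundant of the 200 genes by mean CPM, Nfu_g_1_019295, went the same way, with 708 and 417 CPM in replicates 1 and 4 at 0.1% and 4.66 to 10.4 CPM in the other 3. Its level at 10% was 69.2 CPM in replicate 3 and 3.78 to 6.69 CPM in the other 4 libraries, and at 1% it was 13.2 CPM in replicate 3 and 6.38 to 8.48 CPM in the others. At 27 weeks it ran from 6.60 to 14.7 CPM, replicate 5 again being highest.

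**Figure D2:**
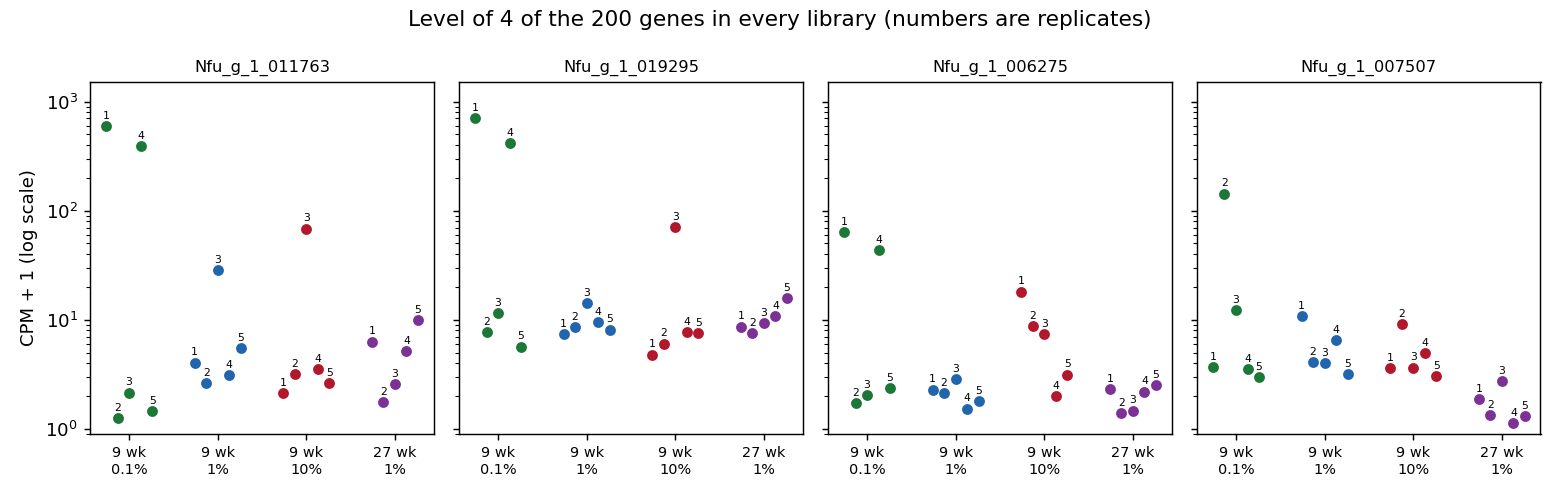
CPM + 1 (log scale) of 4 of the 200 genes in every library, by age and dose, with the replicate number beside each point. Nfu_g_1_011763 and Nfu_g_1_019295 are high in replicates 1 and 4 at 0.1% and in replicate 3 at 10%, Nfu_g_1_006275 is highest at 10% in replicate 1, and Nfu_g_1_007507 is high in replicate 2 at 0.1% and low in all 5 libraries at 27 weeks.

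The place where the list ends is not a boundary in the data. The last gene inside it had an SD at 0.1% of 2.2652 on the log2 scale and the first outside it 2.2645, and both split the libraries into replicates 1 and 4 against the rest. The same split was found for 96.5% of ranks 1 to 200, 96.5% of ranks 201 to 400, 88.2% of ranks 401 to 800, 73.9% of ranks 801 to 1600 and 41.8% of the remaining 6287 genes. Replicates 1 and 4 were both above the other 3 libraries in 45.4% of all 17060 genes. The share was 70.3% among the 7887 genes the 200 were taken from, and 97.0% among the 200. In CPM by count totals, the 200 genes are thus the upper end of a difference between libraries that reaches far down the ranking. With TMM factors for library composition the count among the 200 stayed at 194, and their mean summed level at 0.1% went from 5536 to 4742 CPM. The shares among the other genes were not recomputed with these factors. How far a shift of whole libraries enters those shares was not tested.

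In most of the 193 genes the levels of both high libraries stood in a similar proportion. The level in replicate 4 was a median of 0.673 of that in replicate 1, with quartiles of 0.620 and 0.739. The ratio lay between 0.5 and 1 in 175 of the 193 genes, and over all 193 it ran from 0.25 to 2.6. These levels are from the group whose spread chose the genes, and the split kept genes high in both libraries. The closeness of the ratios was thus set in part by the choice and is a description. Replicate 1 was above replicate 4 in 187 genes and below it in 6. Across genes the levels of both libraries ranked alike (Spearman rho 0.919 over 193 genes, a description, since genes of 1 library share its depth and were chosen together).

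The rule took no account of which library was high in the other groups, only that the spread there was smaller. At 10%, replicate 3 was the highest of its group for 192 of the 200 genes, against 18.6% of all 17060 genes. For the 193 genes its excess over the median of the other 4 libraries at 10% was a median of 11.54% of the excess of replicate 1 at 0.1%, with quartiles of 9.77% and 13.1%. This share lay between 5% and 20%, a wide range set for description, for 181 of the 193 genes. At 1% and 9 weeks, replicate 3 was highest for 182 of the 200 genes, against 31.3% of all genes, with a median excess of 2.45% of that of replicate 1 at 0.1% (quartiles 1.47% and 3.49%). At 27 weeks replicate 5 was highest for 114 of the 200, against 15.3% of all genes, with a median excess of 0.594% (quartiles 0.281% and 1.03%). In the other 12 libraries outside 0.1% the median excess lay between -0.461% and 0.146%.

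**Figure D3:**
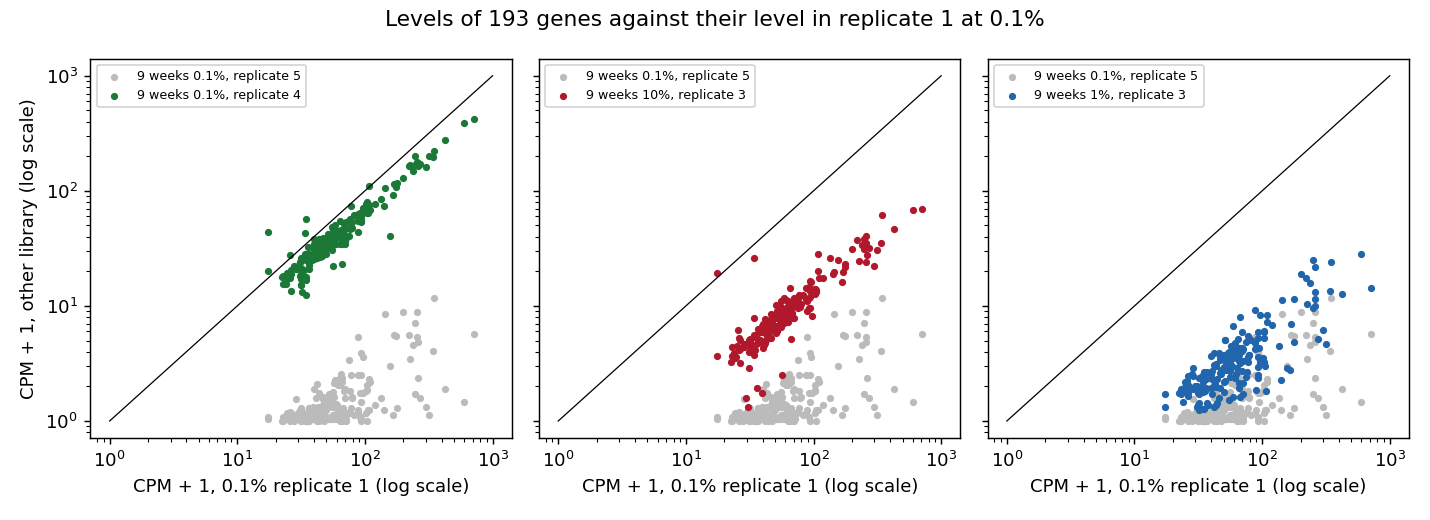
CPM + 1 of 193 genes in replicate 1 at 0.1% (horizontal) against another library (vertical), both on log scales, each point being 1 gene. Colour marks replicate 4 at 0.1% (left), replicate 3 at 10% (middle) and replicate 3 at 1% (right), grey marks replicate 5 at 0.1%, and the line marks equal levels. Levels in replicate 4 at 0.1% follow the line at a median ratio of 0.673, those in replicate 3 at 10% form a band below it, and those in replicate 3 at 1% lie closer to the grey points.

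The remaining 12 of the 193 genes, singled out after their values were seen, lay outside this range in replicate 3 at 10%: 6 fell under 5% and 6 exceeded 20%. The upper bound is not a break in the data, with 18.2% for the last gene inside it and 20.3% for the first outside. Nfu_g_1_017862 was at 28.8 and 21.2 CPM in replicates 1 and 4 at 0.1% and at 0.166 to 0.260 CPM in the others, but at 0.578 CPM in replicate 3 at 10%, against 0.208 to 0.564 CPM in the other libraries at that dose. Its excess there was 0.741% of that in replicate 1 at 0.1%. At the other end, Nfu_g_1_007840 was at 18.2 CPM in replicate 3 at 10%, against 0.0345 to 0.310 CPM in the other 4. At 0.1% this gene was at 16.4 CPM in replicate 1 and 42.5 CPM in replicate 4, the highest ratio of replicate 4 to replicate 1 of the 193 genes at 2.60.

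Co-variation was measured as the Pearson r of log2(CPM + 1) between genes over the 5 libraries of a group, and is given as the median over all pairs, with no test. At 0.1%, the group whose spread chose the genes, the median r among the 200 genes was 0.998, against 0.245 among all 17060 genes. At 10% it was 0.974 against 0.0055 among all genes, at 1% and 9 weeks 0.801 against 0.043, and at 27 weeks 0.475 against 0.046. Without replicate 3 the median r of the 200 genes at 10% was 0.033, and the value for all genes 0.013. Without replicate 3 at 1% it was 0.191 against 0.0185. At 27 weeks, where no library stood as far from the rest, the median r without replicate 5 was 0.407 against 0.0305 among all genes. As measured, the shared variation at 10% thus rested on 1 library, as did most of that at 1%, and at 27 weeks it was spread over several. Outside replicate 3 the median member lay between 0.374 and 0.464 CPM at 10% and between 0.348 and 0.551 CPM at 1%. Counting error weighs on r at such levels, so that a low r does not show that the genes varied apart.

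**Figure D4:**
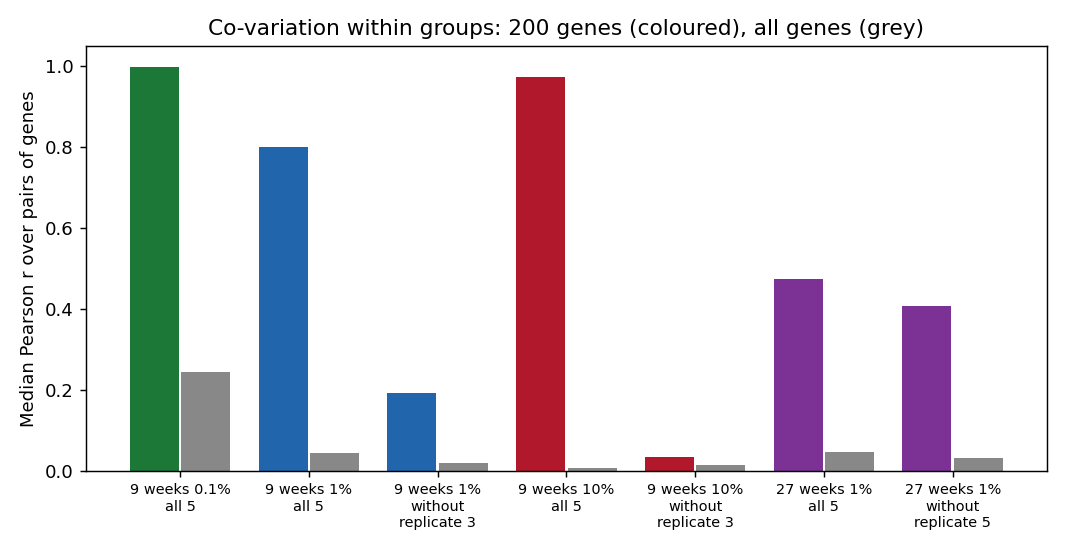
Median Pearson r over all pairs of genes within each group, for the 200 genes (coloured) and for all 17060 genes with a mean of at least 1 CPM (grey), with all 5 libraries and without the library in which the 200 genes were raised. The coloured bar falls from 0.974 to 0.033 at 10% without replicate 3 and from 0.801 to 0.191 at 1% without replicate 3, and goes from 0.475 to 0.407 at 27 weeks without replicate 5.

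The SD within groups followed the same order. The median SD of log2(CPM + 1) of the 200 genes was 2.69 at 0.1% (the criterion of choice), 1.02 at 10%, 0.412 at 1% and 9 weeks and 0.240 at 27 weeks. Over all 17060 genes the medians were 0.351, 0.237, 0.277 and 0.210. The group at 10% was the second most variable for 187 of the 200 genes and for 37.2% of all genes with their largest SD at 0.1%. The SD of genes under 1 CPM is compressed by the pseudocount of 1, and the median member lay between 0.324 and 0.934 CPM at 27 weeks, so that a low SD there does not show steadiness.

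**Figure D5:**
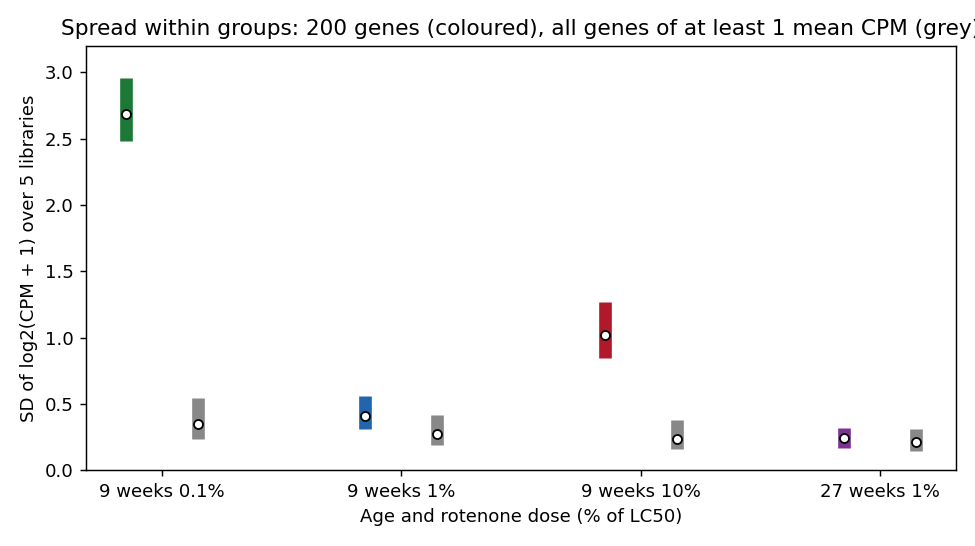
SD of log2(CPM + 1) over the 5 libraries of each group, with the median (point) and the quartiles (bar), for the 200 genes (coloured) and all 17060 genes with a mean of at least 1 CPM (grey). The medians of the 200 genes are 2.69 at 0.1%, 0.412 at 1%, 1.02 at 10% and 0.240 at 27 weeks, against 0.210 to 0.351 for all genes.

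Outside the raised libraries the 193 genes were present at a low level in every group. Their summed level was 248 ± 16.2 CPM (SD, n = 4) at 1% and 9 weeks without replicate 3, 240.1 ± 25.1 CPM (n = 4) at 10% without replicate 3, and 261 ± 32.5 CPM (n = 4) at 27 weeks without replicate 5. It was lower in the 3 low libraries at 0.1%, 164 ± 12.1 CPM (n = 3), of which the highest, at 171 CPM, lay below the lowest of all libraries in other groups, at 216 CPM. Gene by gene, the median of these 3 libraries was below that of replicates 1, 2, 4 and 5 at 1% for 173 of the 193 genes, and for 65.8% of all 17060 genes. No test is given, since a wide spread at 0.1% favours genes with low values in some libraries there and because dose and table coincide. Leaving out the raised libraries was decided after their values were seen.

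Levels can be compared between genes only per length, and gene lengths were recovered from the deposited values. The 200 genes had a median length of 2521 bases, with quartiles of 1635 and 4184, against 2795 bases (1416 and 4812) for all 17060 genes. In CPM per kilobase, the median member stood at percentile 82.6 of the 17060 genes in replicate 1 at 0.1% and at percentile 2.17 in replicate 5 of the same group. The highest level per length in replicate 1 was that of Nfu_g_1_011763, at 448 CPM per kilobase over 1335 bases, percentile 99.2. Both percentiles are from the group whose spread chose the genes, and a high and a low end were fixed by that choice.

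The 7 genes outside the common pattern split the libraries at 0.1% at other places, and 5 of them are named here after their values were seen. Nfu_g_1_001501, Nfu_g_1_005336 and Nfu_g_1_019605 were high in replicate 4 at 0.1% alone, at 106, 47.8 and 35.5 CPM, and at most 0.374, 0.0844 and 0.0832 CPM in the other 4 libraries of that group. In the 15 libraries of the other groups these genes reached no more than 2.05, 0.288 and 0.322 CPM. Nfu_g_1_010568 was high in replicate 1 at 0.1%, at 114 CPM against 4.45 CPM in replicate 4 and 0.148 to 0.464 CPM in the rest. Outside 0.1% it was highest in replicate 5 at 27 weeks, at 7.47 CPM, and at most 1.65 CPM in the other 14 libraries. Nfu_g_1_013874 was low in replicate 4 at 0.1% (0.355 CPM) and at 115, 24.2, 38.5 and 5.70 CPM in replicates 1, 2, 3 and 5. Its spread at 1% and 9 weeks was nearly as wide, with 57.5 CPM in replicate 1 and 0.0887 to 0.859 CPM in the other 4.

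Nfu_g_1_007603 and Nfu_g_1_007507, the last of the 7, were high in replicate 2 at 0.1%, at 65.5 and 142 CPM. In that group both genes came next in replicate 3, at 6.27 and 11.2 CPM, and were at most 1.09 and 2.68 CPM in replicates 1, 4 and 5. The log2 levels of both genes had a Pearson r of 0.968 over the 20 libraries, a description of a pair picked for its likeness. Whether these genes, of 435 and 444 bases, share reads as near copies cannot be seen from counts.

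The comparisons between the other groups use values that entered the choice only in part: the SD within each of these groups had to be smaller than at 0.1%, and their levels counted in the mean CPM, but differences between them did not enter. Comparisons with 1% at 9 weeks share those 5 libraries, and comparisons with 0.1% share the libraries at 0.1%. Calls are those of edgeR's quasi-likelihood test with a Benjamini-Hochberg adjusted p under 0.05 over all genes tested. Of the 200 genes, 148 passed the filter on low counts in the 15 libraries at 1% and 10%, and 52 had too few reads there.

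For 10% against 1% at 9 weeks, the upper dose step, 3 of the 148 genes tested were higher at 10% and 0 lower, or 2.03%, against 9.11% of all 18473 genes (4.22% higher, 4.88% lower). At an unadjusted p under 0.05 there were 19 of the 148, against 25.6% of all genes. The median log2 change of the 148 genes was 1.17, against 0.04 for all genes, and 145 were positive. Without replicate 3 at 10% the median was -0.42, and without replicate 3 in both groups, a choice made after the values were seen, it was 0.03. Of the genes described here, 0 were called without replicate 2 and 0 without replicate 4 at 1% (edgeR). The calls over all genes also fell, from 1682 to 642 and 690, and 3 calls are too few to compare the losses. The raised level in 1 library of 5 sets the median, and the test found the dose groups to differ beyond the spread between libraries in few of these genes. The median standard error (SE) of the log2 change was 0.79 for the 148 genes, against 0.21 for all genes. A change of a given size was therefore harder to call in them, and the lower share called does not show that they changed less.

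The largest increase called was that of Nfu_g_1_012207. Its level at 1% was 0.514, 0.566, 0.820, 0.266 and 0.505 CPM in replicates 1 to 5. At 10% it was 4.82, 0.766, 27.4, 0.413 and 2.60 CPM. The groups overlapped in replicates 2 and 4 at 10%. The change was 3.97 on the log2 scale with an SE of 0.95 (edgeR adjusted p = 0.0227). Without replicate 3 at 10% the change was 2.21 (edgeR adjusted p = 0.0476), and the call was lost without replicates 1, 2 or 4 at 1% (0.0509, 0.0557 and 0.0588).

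The next was Nfu_g_1_006275, whose 10% values did not follow the common pattern. At 10% its level was 17.1 CPM in replicate 1, 7.74 CPM in replicate 2, 6.32 CPM in replicate 3, 0.999 CPM in replicate 4 and 2.13 CPM in replicate 5, against 0.532 to 1.87 CPM at 1%. Replicate 4 alone overlapped the lower dose, and the gene was 2.83 log2 units higher at 10% (edgeR SE 0.65, adjusted p = 0.0203), or 2.86 without replicate 3. The call was lost without replicates 2 or 4 at 1% (edgeR adjusted p = 0.0519 and 0.0547) and without both replicates 1 and 2 at 10% (0.12). Nfu_g_1_004132, outside the rule for named genes and the last of the 3, rose from 2.09 ± 0.781 CPM to 7.71 ± 9.33 CPM (SD, n = 5), by 2.10 on the log2 scale with an SE of 0.62, and edgeR gave an adjusted p of 0.0486. Its level of 24.0 CPM in replicate 3 set that mean, and without this library the change was 1.01 (edgeR adjusted p = 0.152). The call was lost in 15 of 20 alternatives, among them each 1% library left out in turn (edgeR adjusted p from 0.0583 to 0.113), replicates 1 or 2 at 10% left out (0.0714 and 0.0516) and upper quartile normalization (0.0512).

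For 27 against 9 weeks at 1%, 0 of the 148 genes were higher and 2 lower at 27 weeks, or 1.35%, against 4.49% of all 18473 genes (2.08% higher, 2.40% lower). At an unadjusted p under 0.05 there were 5 of the 148, against 23.0% of all genes. The median SE of the log2 change was 0.80 for the 148 genes, against 0.20 for all genes, so that these lower shares do not show a smaller change with age. The median log2 change was -0.29, against -0.02 for all genes, and it was 0.21 without replicate 3 at 9 weeks and 0.02 without both that library and replicate 5 at 27 weeks. The count was 1 without replicate 1 at 9 weeks, and 0 without replicate 2 at 9 weeks or without replicates 1, 2 or 5 at 27 weeks. Over all genes the calls fell from 829 to 325 and 17 without replicates 1 and 2 at 9 weeks. They fell to 94, 61 and 52 without replicates 1, 2 and 5 at 27 weeks, and 2 calls are too few to compare the losses.

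Both genes lower at 27 weeks were those carried at 0.1% by replicate 2. Nfu_g_1_007603 was at 3.30, 1.09, 0.663, 1.15 and 0.735 CPM in replicates 1 to 5 at 9 weeks. At 27 weeks it was at 0.303, 0.108, 0.342, 0.0791 and 0.112 CPM. The groups did not overlap (2.15% of all genes were lower at 27 weeks without overlap), and edgeR put the log2 change at -2.92 with an SE of 0.60 and an adjusted p of 0.0252. Its lowest level in any 9-week library was 0.541 CPM, so that all 15 younger libraries lay above all 5 older ones. These 15 take in the libraries at 0.1%, whose spread chose the gene, so that this wider separation is a description only. The call was lost without replicate 2 at 9 weeks (0.067) and without replicates 1, 2 or 5 at 27 weeks (0.0522, 0.0597 and 0.063).

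Nfu_g_1_007507 behaved alike, from 9.71, 3.09, 3.0, 5.50 and 2.16 CPM at 9 weeks to 0.872, 0.324, 1.75, 0.119 and 0.299 CPM at 27 weeks. All 5 older libraries lay below all 5 younger ones at this dose and below the lowest of the other 10 younger libraries, at 1.96 CPM. Since those 10 take in the libraries at 0.1%, whose spread chose the gene, that second separation is a description only. The test of edgeR put the log2 change at -2.86 with an SE of 0.65 and an adjusted p of 0.0308. The call was lost without replicates 1 or 2 at 9 weeks (0.0609 and 0.0723) and without replicates 1, 2 or 5 at 27 weeks (0.0646, 0.0698 and 0.077).

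The comparisons with 0.1% involve the values that chose the genes, so that the choice entered their outcome and the calls support nothing. The summed level of the 200 genes was 5536 ± 7469 CPM at 0.1%, 343 ± 166 CPM at 1% and 607 ± 797 CPM at 10% (SD, n = 5 each). Of the 174 genes that passed the filter on low counts over 20 libraries, 26 passed it only with the libraries at 0.1%. For 1% against 0.1%, 148 of the 174 genes were called lower at 1% and 0 higher, beside 10.0% and 8.43% of all 18808 genes, and the median log2 change was -4.31. Without replicates 1 and 4 at 0.1% the median was 1.09. Of the 175 genes then tested 2 were called, Nfu_g_1_007603 and Nfu_g_1_007507, both lower at 1%, beside 2377 over all genes. The count was 19 of 175 tested without replicate 1 alone and 48 of 173 without replicate 4 alone. Without replicates 1, 2, 4 and 5 at 1% it was 47, 40, 43 and 49 (191 or 192 tested). Over all genes the calls fell from 3473 to 2636, 2300, 2421, 2439, 2464 and 2512, in the same order. For 10% against 0.1% edgeR called 0 of the 174 genes and 0 of all 18808 (0%). At an unadjusted p under 0.05 in edgeR, 147 of the 174 were lower, beside 11.2% of all genes. DESeq2 called 44 of the 174, all lower at 10%, beside 930 of all 18808 genes in either direction. The median log2 change by edgeR was -3.01, and 2.34 without replicates 1 and 4 at 0.1%.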

How the data were processed

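Skin RNA was sequenced from TruSeq libraries, per the labels' protocols. The submitters' processing notes name featureCounts 1.4.6-p4, STAR 2.4.1d and CASAVA 1.8.2; build, annotation and strandedness: not given in the sources used here. Deposited in 2 tables, the counts are raw reads for each gene; columns were matched by title, and 10 count columns and 9 RPKM columns that match no sample here were not used. The deposited RPKM values divide each row by a total that runs through 35 values from row to row, among which were the count totals of all 20 libraries (SD of the log2 difference 7.88e-06). Solving for these gave gene lengths, whole within 0.05 bases for 3292 of 3768 genes with 20000 or more reads. Since the divisors run on from row to row, most rows of a library were not divided by its own total. RPKM thus does not compare libraries as CPM does, and it served only in alternatives.

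CPM used count totals and a pseudocount of 1. Tests used R 4.3.3 and edgeR 4.0.16 (TMM, filterByExpr, glmQLFit, glmQLFTest, 1 mean per group, two-sided), on 15 libraries within the first table and 20 for comparisons with 0.1%; SEs were derived from the F statistic. Fits were also run on simulated data in which no library had a set of genes raised together, so that those runs do not bear on such libraries. Groups come from the labels. The p-values set differences between group means against the spread between libraries, which may not each come from their own animal. Replicate numbers only name libraries. Alternatives were RLE and upper quartile normalization, other filters, DESeq2 1.42.0, limma 3.58.1 on log2(RPKM + 1), other sets of libraries, leaving out each library, and other settings of the rule. Members, lists and tests were chosen with earlier results of these data known. Identifiers were named by rule: the highest SD in each pattern held by at least 10 genes, the 2 largest increases and decreases called per comparison within the first table, and the highest mean CPM; others are said to be chosen after their values were seen. Gene lists could not be tested without names. Depth leaves counting error small except for genes with few reads, where 1 read is about 0.04 CPM, and near copies share reads in ways counts do not resolve.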

Additional observations from a re-analysis of the deposited data

Results flagged for a closer look

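Outside 0.1%, 11 of 27 groups of 5 values held a library whose gap to its neighbour exceeded the limit of Dixon's test. Chance passes this limit about 1 time in 20 where values are normally distributed, but CPM entered here without a log scale. The values are also not independent, since the genes were chosen for their spread at 0.1% and many were raised in the same libraries. Some were named for their change between 1% and 10% or with age. The number of flags can therefore not be set against chance. Replicate 3 at 10% was flagged in the summed level (2033 CPM) and the median level (7.11 CPM) of the 200 genes, and for Nfu_g_1_011763 (67.4 CPM), Nfu_g_1_012207 (27.4 CPM), Nfu_g_1_019295 (69.2 CPM) and Nfu_g_1_004132 (24.0 CPM). Replicate 3 at 1% was flagged in the summed level (633 CPM), the median level (1.87 CPM) and Nfu_g_1_011763 (27.3 CPM). At 0.1% the spread chose the genes, so that a library standing apart there was set by the choice and is listed as a value only: replicate 2 for Nfu_g_1_007603 (65.5 CPM) and Nfu_g_1_007507 (142 CPM), and replicate 1 for Nfu_g_1_004132 (156 CPM). Nfu_g_1_007603 was also high in replicate 1 at 1% (3.30 CPM), and Nfu_g_1_012207 in replicate 2 at 27 weeks, at a low level (0.577 CPM).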

How the results depend on the processing

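The list of 200 genes shared 141 to 200 genes with the lists of 11 other settings of the rule (among them each 0.1% library left out in turn, with 186 to 196). With a mean of at least 5 CPM it shared 113, and without both replicates 1 and 4 at 0.1% it shared 3.

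The number of the 200 genes called for 10% against 1% was 0 to 4 when 1 library was left out. It was 1 of 38 tested with a filter of 50 reads in 5 libraries and 5 of 148 with DESeq2, against 3 of 148 in the main fit. In a fit of the 10 libraries alone (115 tested), with limma on RPKM (148), or with all 20 libraries (174) it was 0. Over all genes the calls were 642 to 2421, 1716, 2587, 468, 774 and 1326 in the same order, against 1682 in the main fit. For 27 against 9 weeks the number of the 200 genes called was 0 to 2 when 1 library was left out. It was 1 of 38 tested with the stricter filter, and 0 with the 10 libraries alone (126 tested) or all 20 (174), against 2 of 148 in the main fit. Over all genes the calls were 17 to 1754, 852, 103 and 423 in the same order, against 829 in the main fit. For 1% against 0.1% the number of the 200 genes called was 19 to 188 when 1 library was left out (173 to 192 tested), against 148 of 174 in the main fit. It was 50 of 56 tested with the stricter filter, and 0 with 10 libraries alone (of 120) or limma (of 174). Without both replicates 1 and 4 it was 2 of 175. Over all genes the calls were 2300 to 3905, 3235, 1159, 1455 and 2377 in the same order, against 3473 in the main fit. For 10% against 0.1% DESeq2 called 44 of the 174 genes tested and 930 over all genes. The number of all genes tested also differed between filters and sets of libraries. It is not given here for each setting, so that shares called cannot be compared between settings. The causes of these differences between settings were not tested.

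The median log2 change of the genes ran from -0.42 (without replicate 3 at 10%) to 1.60 for 10% against 1% when 1 library was left out. For age it ran from -0.48 to 0.21 (without replicate 3 at 9 weeks), and it reversed to 0.0242 without that library and replicate 5 at 27 weeks together, and to 1.09 and 2.34 for 1% and 10% against 0.1% without both replicates 1 and 4. With limma on log2(RPKM + 1) it was 0.19 for 10% against 1%, and -1.36 and -1.15 for 1% and 10% against 0.1%. That scale compresses low levels and its divisors change from row to row, and what each contributed was not tested. For 10% against 0.1% the median log2 change by edgeR was -4.82 without replicate 3 at 10%. The median pairwise r ran from 0.191 to 0.8725 at 1% and from 0.033 to 0.9855 at 10% when 1 library was left out, and was 0.5 at 10% with Spearman's rho. No paired analysis was possible because the labels give no number that pairs libraries across groups.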
